A study of Mus musculus with 10 samples.

Results

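The genes described here were those that build long-chain fatty acids in the liver and desaturate them, namely Acly, Acaca, Fasn, Elovl5, Elovl6, Scd1, Fads1, Fads2, Srebf1 and Thrsp. They were found by gene symbol in the annotation of the Clariom S Mouse Array. Of the 10 genes, 9 had a probe set, each of them 1, among 19505 genes named on the array. Srebf1, which encodes a transcription factor that drives lipid synthesis genes, was not found under its symbol and was not analysed here. All 9 measured genes varied between mice, with a standard deviation (SD) over the 10 arrays of 0.25 (Scd1) to 1.10 (Thrsp) on the log2 scale, so none was flat, which is defined here as an SD under 0.001.

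Liver RNA was hybridized from 10 male mice, labelled C57BL/6N (supplied as C57BL/6NCrSlc) and 8 weeks old, with 1 mouse on each array. By the study's methods, 8 weeks was the age before 1 week on plain AIN-93G that preceded the diets below, so the mice were older at liver collection. Mice are numbered by the replicate number of their label. The iso-α-acids diet group (5 mice) ate the AIN-93G diet with 0.5% (w/w) iso-α-acids, the bitter acids of hops, for 1 week. The control diet group (5 mice) was pair-fed plain AIN-93G for the same week. The labels give no genetic modification. All 10 mice received 200 mg/kg acetaldehyde i.p., with the liver taken at 5 h, so every difference below lies between diets in acetaldehyde-treated mice. The mice were selected as representative of larger groups by their serum enzymes and are not a random sample.

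The deposited values were quantile normalized and ran from 4.94 to 13.37, and the array medians lay between 6.71 and 6.72. The summarization left 19767 of 22206 probe sets flat and 2439 varying. Shares of all probe sets called, given below, include the flat ones and are not shares of varying probe sets. Of 6 hepatocyte markers, all were measured, and Alb, Ttr, Apoa1 and Serpina1a were flat at 13.10 to 13.23, close to the upper end of the scale. The other 2 varied and peaked in iso-α-acids mouse 1, Cyp2e1 at 13.07 and Hnf4a at 10.91. Cyp2e1 lay at 12.75 to 13.07 in the iso-α-acids mice, against 12.53 to 12.72 in the control mice (difference 0.19, limma adjusted p = 0.377). Of 6 adipocyte markers, 5 were measured and all 5 were flat, with Adipoq at 5.65 and Lep at 5.64 in every mouse. Iso-α-acids mouse 1 stood apart from its group. The mean of 6 acute phase and stress genes lay 2.02 above the control mean in that mouse on the log2 scale, against -1.12 to -0.48 in iso-α-acids mice 2 to 5. Of these genes, Lcn2, Orm2, Mt1 and Mt2 lay above the control mean in iso-α-acids mouse 1, and Saa1 and Saa2 lay below it, at -0.20 and -0.36. Results that rest on this mouse are given with and without it, a choice made with its values known.

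Hepatic fatty acid synthesis starts from citrate, which Acly cleaves to acetyl-CoA in the cytosol. Acaca carboxylates acetyl-CoA to malonyl-CoA, and Fasn assembles palmitate from both. Elongases then lengthen the chain and desaturases insert double bonds, Scd1 in saturated chains and Fads1 and Fads2 in polyunsaturated ones. In liver the pathway is known for its rise with feeding and insulin and its fall with fasting, and the transcripts of its genes often move together.

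With all 10 mice, none of the 9 genes differed between the diets by limma's moderated test at an adjusted p under 0.05. No gene was called higher and none lower, where 0.590% of all 22206 probe sets were called higher and 0.171% lower. None passed at an unadjusted p under 0.05 either. The median log2 difference of the 9 genes was -0.06 (iso-α-acids diet minus control diet), and that of all 2439 varying probe sets was 0.01. What the genes shared was a fall in 1 mouse: iso-α-acids mouse 1 was the lowest of all 10 mice for 9 of the 9 genes, where the same mouse was lowest for 34.8% of varying probe sets. Its mean deviation over the 9 genes was -1.59 from the control mean. In iso-α-acids mice 2 to 5 it was 0.26, 0.41, 0.12 and 0.26, against -0.28, 0.58, -0.27, 0.05 and -0.07 in control mice 1 to 5. In bulk liver, fewer cells of a type and less RNA per cell cannot be told apart.

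**Figure D1:**
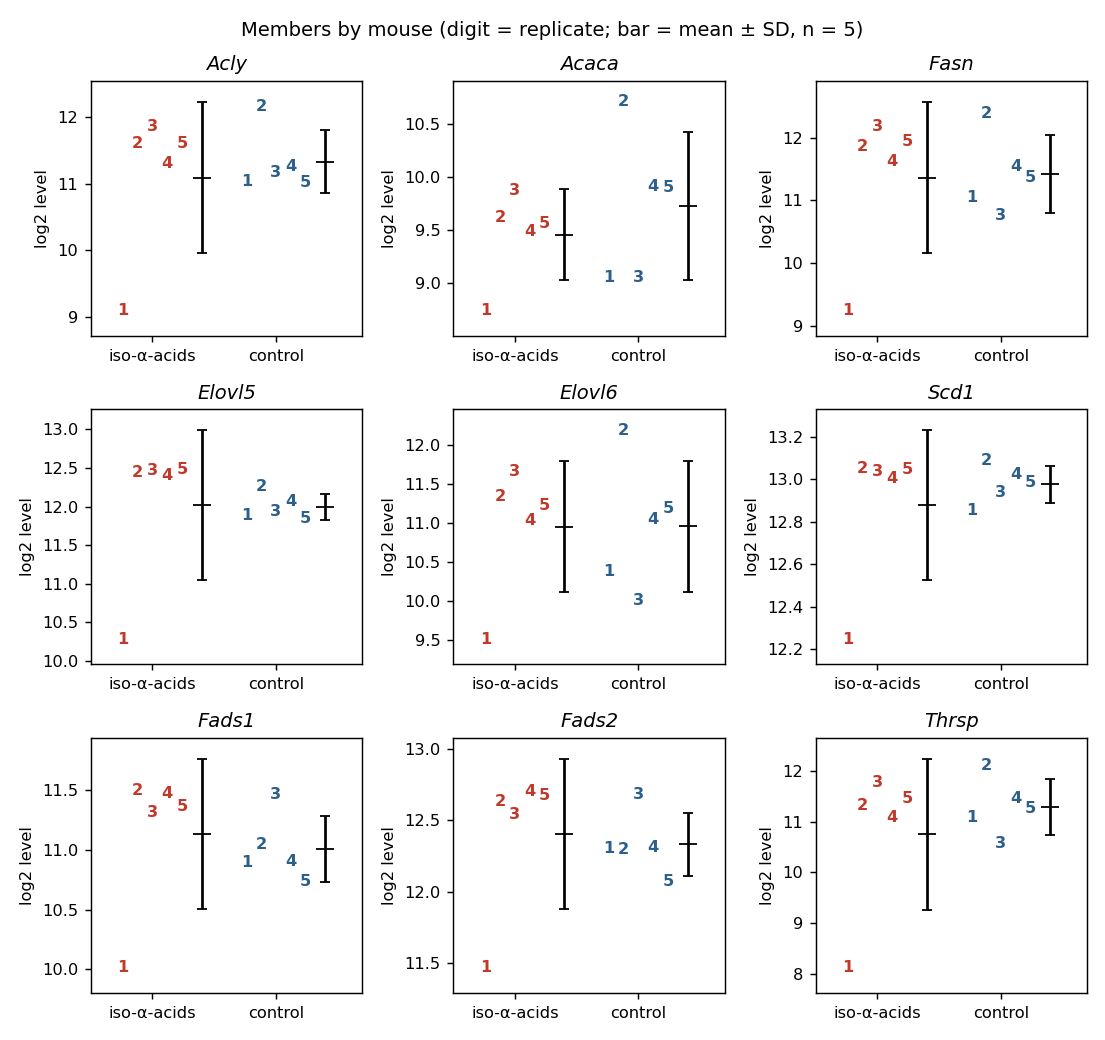
Log2 level of each measured gene by mouse, with the iso-α-acids diet group left of the control diet group, digits for replicates and black bars for mean ± SD (n = 5 each); each panel has its own vertical axis, which does not start at 0. Iso-α-acids mouse 1 is the lowest digit in all 9 panels, and control mouse 2 is the highest control in 7.

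To show what the promoters of these genes hold, the 250 bases before the RefSeq transcription start (mouse build GRCm38.p6) were searched on both strands. Windows were found for 8 of the 10 genes, with 3 alternative starts for Srebf1, and Fads1 and Scd1 were only named. The CCAAT box (CCAAT), bound by the NF-Y complex, occurred in 5 of the 10 windows, from 4 genes, Fasn, Thrsp, Elovl5 and Srebf1. It occurred in 33.8% of all 32851 windows of the same length. The GC box (GGGCGG), a site for Sp1-type factors, occurred in 4 of the 10 windows, from Acly, Fads2 and Srebf1, and in 32.7% of all windows. The E-box CACGTG occurred in Elovl5 at bases -161 to -156 from the start and in 6.02% of all windows. A sterol regulatory element (TCACNCCAC, 1.05% of all windows) and the consensus DR1 and DR4 repeats of nuclear receptors (0.0335% and 0.0152% of all windows) were not matched in any of the 8 genes, which says only that these letters are not in these windows. A match is a string of letters and was not tested as a binding site. Of the 4 windows shown, Fasn and Thrsp belong to the synthesis genes that fell furthest in iso-α-acids mouse 1, Elovl5 to the gene called without that mouse, and Fads2 to the desaturases, whose order of mice differed. Each is written 5′ to 3′ on the strand of the gene, with CCAAT and GC boxes on either strand in capitals (ATTGG is CCAAT on the other strand).
Fasn (chr11:120824548-120824797, minus strand): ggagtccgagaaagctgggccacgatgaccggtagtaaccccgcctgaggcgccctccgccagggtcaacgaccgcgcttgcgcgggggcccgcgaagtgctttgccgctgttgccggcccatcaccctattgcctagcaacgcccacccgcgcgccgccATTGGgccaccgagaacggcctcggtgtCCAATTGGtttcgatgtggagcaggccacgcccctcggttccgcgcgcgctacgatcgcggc
Thrsp (chr7:97417551-97417800, minus strand): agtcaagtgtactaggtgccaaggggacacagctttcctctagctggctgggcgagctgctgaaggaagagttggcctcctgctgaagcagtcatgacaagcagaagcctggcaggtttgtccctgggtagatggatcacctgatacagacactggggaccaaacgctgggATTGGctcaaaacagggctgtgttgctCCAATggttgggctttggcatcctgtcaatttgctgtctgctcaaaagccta
Elovl5 (chr9:77917115-77917364, plus strand): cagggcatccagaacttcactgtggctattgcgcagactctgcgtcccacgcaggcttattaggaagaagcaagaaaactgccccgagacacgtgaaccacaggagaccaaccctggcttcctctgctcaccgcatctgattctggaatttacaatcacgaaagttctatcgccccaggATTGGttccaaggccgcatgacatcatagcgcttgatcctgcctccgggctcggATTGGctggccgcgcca
Fads2 (chr19:10101504-10101753, minus strand): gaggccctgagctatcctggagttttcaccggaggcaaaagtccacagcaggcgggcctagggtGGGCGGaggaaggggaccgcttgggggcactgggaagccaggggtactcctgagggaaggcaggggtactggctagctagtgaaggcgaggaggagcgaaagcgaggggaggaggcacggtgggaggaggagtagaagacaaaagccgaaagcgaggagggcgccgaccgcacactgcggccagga
Fasn held CCAAT at -90 to -86, at -62 to -58 and, overlapping it on the other strand, at -59 to -55. Thrsp held it at -79 to -75 and -52 to -48, and Elovl5 at -71 to -67 and -17 to -13. Fads2 held 1 GC box, at -186 to -181, and no CCAAT. No relation of these motifs to the values was tested.

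The enzymes that make palmitate were compared first. Acly, the ATP citrate lyase, had log2 levels of 9.09, 11.60, 11.85, 11.30 and 11.61 in iso-α-acids mice 1 to 5, against 11.03, 12.15, 11.17, 11.26 and 11.02 in control mice 1 to 5. Iso-α-acids mouse 1 lay below every control mouse, iso-α-acids mice 2 to 5 lay above 4 of the 5 control mice, and the groups overlapped through control mouse 2. The iso-α-acids diet group averaged 11.09 ± 1.13, against 11.33 ± 0.47 in the control diet group (SD, n = 5 each), a difference of -0.24 ± 0.54 (SE; limma adjusted p = 0.947). Iso-α-acids mouse 1 lay 5.64-fold below the mean of iso-α-acids mice 2 to 5. Without it the difference was 0.26 ± 0.25 (adjusted p = 0.778), so the direction turned with 1 mouse.

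Fasn, the fatty acid synthase, had log2 levels of 9.23, 11.86, 12.18, 11.62 and 11.93 in the iso-α-acids diet group, against 11.05, 12.39, 10.76, 11.54 and 11.37 in the control diet group. The order of mice was close to that of Acly, with iso-α-acids mouse 1 lowest, mouse 3 highest in its group and control mouse 2 highest among controls. The difference was -0.06 ± 0.59 (SE; limma adjusted p = 0.987), with a 95% interval of -1.42 to 1.30. The fall of iso-α-acids mouse 1 against iso-α-acids mice 2 to 5 was 6.32-fold. Without iso-α-acids mouse 1 the difference was 0.47 ± 0.32 (adjusted p = 0.648), and control mouse 2 still lay above all 4 remaining mice.

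Acaca, the acetyl-CoA carboxylase of the cytosol, had log2 levels of 8.74, 9.62, 9.88, 9.49 and 9.56 in the iso-α-acids diet group, against 9.05, 10.71, 9.06, 9.91 and 9.91 in the control diet group. Here 3 control mice lay above every iso-α-acids mouse and 2 lay below iso-α-acids mice 2 to 5. The difference was -0.27 ± 0.36 (SE; limma adjusted p = 0.891) with all mice and -0.09 ± 0.35 (adjusted p = 0.963) without iso-α-acids mouse 1. Acaca was the only one of the 9 genes that stayed below 0 in both fits.

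Thrsp, which encodes a small nuclear protein that promotes lipogenesis in liver, moved furthest in a single mouse. Its log2 levels were 8.12, 11.31, 11.76, 11.09 and 11.45 in the iso-α-acids diet group, against 11.09, 12.10, 10.58, 11.45 and 11.26 in the control diet group. Iso-α-acids mouse 1 lay 9.72-fold below iso-α-acids mice 2 to 5, while those 4 lay within the control range. The difference was -0.55 ± 0.69 (SE; limma adjusted p = 0.883) with all mice and 0.11 ± 0.30 (adjusted p = 0.944) without iso-α-acids mouse 1.

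Among the elongases, Elovl5, which lengthens polyunsaturated chains, had log2 levels of 10.28, 12.44, 12.47, 12.40 and 12.48 in the iso-α-acids diet group, against 11.89, 12.26, 11.94, 12.06 and 11.84 in the control diet group. Iso-α-acids mice 2 to 5 lay above all 5 control mice, and iso-α-acids mouse 1 lay below all of them. With all mice the difference was 0.02 ± 0.43 (SE; limma adjusted p = 0.995). Without iso-α-acids mouse 1 it was 0.45 ± 0.08, or 1.37-fold higher (adjusted p = 0.0433). When control mice 3 and 5 were left out too, it was 0.38 (adjusted p = 0.171). Elovl5 was the 1 gene of the 9 called without iso-α-acids mouse 1 alone, a fit in which 1.57% of all probe sets were called higher and 0.662% lower, and the 1 gene of the 9 whose remaining groups did not overlap. The 1.57% and 0.662% include the flat probe sets, and the share of varying probe sets called was not counted. Iso-α-acids mice 2 to 5 lay above every control mouse for 24.4% of varying probe sets and below every control mouse for 12.7%.

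Elovl6, the elongase that extends palmitate to stearate, had log2 levels of 9.50, 11.34, 11.66, 11.03 and 11.22 in the iso-α-acids diet group, against 10.37, 12.19, 10.01, 11.04 and 11.19 in the control diet group. The control mice spread over 2.18 on the log2 scale, the widest control range of the 9 genes, and took in iso-α-acids mice 2 to 5. The difference was -0.01 ± 0.52 (SE; limma adjusted p = 0.999) with all mice and 0.35 ± 0.43 (adjusted p = 0.842) without iso-α-acids mouse 1.

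Scd1, the stearoyl-CoA desaturase that makes oleate, had log2 levels of 12.25, 13.05, 13.04, 13.01 and 13.04 in the iso-α-acids diet group, against 12.85, 13.09, 12.94, 13.02 and 12.99 in the control diet group. Iso-α-acids mouse 1 was the lowest mouse, and the other 9 mice lay close together and not far under the highest value of any array. The difference was -0.10 ± 0.16 (SE; limma adjusted p = 0.914) with all mice. Without iso-α-acids mouse 1 it was 0.06 ± 0.04 (adjusted p = 0.698), with a 95% interval of -0.05 to 0.16.

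The desaturases of polyunsaturated fatty acids had another order of mice. Fads1, the delta-5 desaturase, had log2 levels of 10.01, 11.50, 11.31, 11.47 and 11.37 in the iso-α-acids diet group, against 10.90, 11.05, 11.47 (mouse 3), 10.91 and 10.74 in the control diet group. Fads2, the delta-6 desaturase, had log2 levels of 11.47, 12.63, 12.54, 12.70 and 12.67 in the iso-α-acids diet group, against 12.30, 12.29, 12.68 (mouse 3), 12.31 and 12.07 in the control diet group. For both genes iso-α-acids mouse 1 was the lowest mouse, iso-α-acids mice 2 to 5 lay above 4 of the 5 control mice, and the highest control was mouse 3. The differences were 0.12 ± 0.30 for Fads1 (SE; limma adjusted p = 0.952) and 0.07 ± 0.25 for Fads2 (adjusted p = 0.967). Without iso-α-acids mouse 1 they were 0.40 ± 0.14 (adjusted p = 0.291) and 0.31 ± 0.11 (adjusted p = 0.310), with 95% intervals of 0.07 to 0.73 and 0.04 to 0.57 that are not adjusted for the number of probe sets. When control mice 3 and 5, the control mice with the highest acute phase genes, were left out too, both passed, at 0.46 for Fads1 (adjusted p = 0.0447) and 0.34 for Fads2 (adjusted p = 0.0283), a setting chosen after the data were seen.

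Exact permutation tests of the single genes over all 252 labelings of the 10 mice gave two-sided p-values of 0.532 (Acaca) to 1 (Elovl5), where the design allows 0.00794. In iso-α-acids mice 2 to 5, the SD was smaller than in the control mice for all 9 genes, with a ratio of 0.219 (Elovl5) to 0.506 (Thrsp). These 4 mice were set apart after their values were seen, so this is a description, and over varying probe sets the median SD was 0.0592 in these 4 mice and 0.0963 in the control mice. Among control mice, mouse 2 was highest for 7 of the 9 genes, all but Fads1 and Fads2, where it was highest for 19.8% of varying probe sets.

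**Figure D2:**
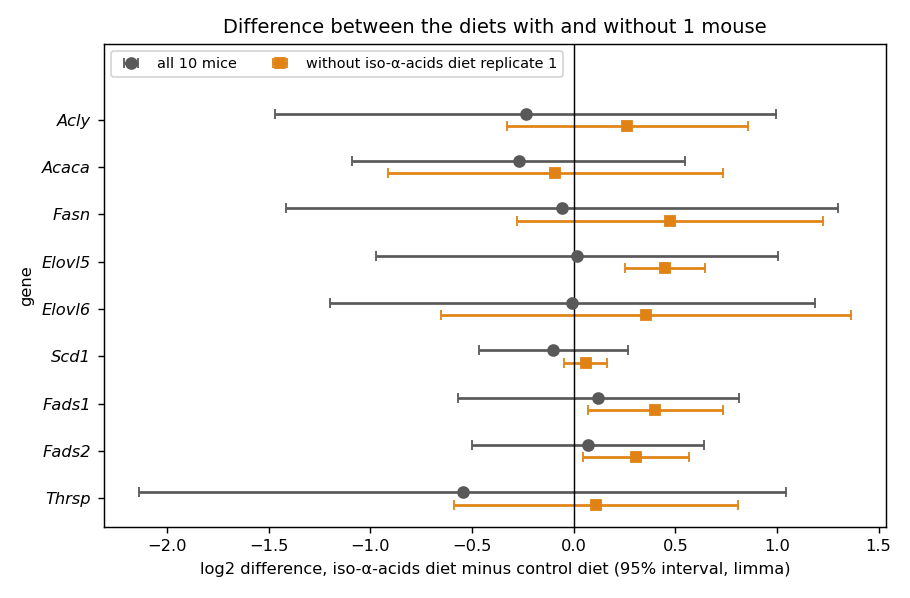
Log2 difference of each measured gene, iso-α-acids diet minus control diet, with limma's 95% interval, for all 10 mice (circles) and without iso-α-acids mouse 1 (squares). With all mice every interval spans 0, and without that mouse Elovl5 lies at 0.45 with an interval of 0.25 to 0.65.

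Rank products, the test of the study's methods, called 4 of the 9 genes upregulated over all probe sets at a false discovery rate (FDR) under 0.05, where it called 3.72% of all probe sets. These were Elovl5 (FDR = 0.0054), Fads1 (0.0095), Fasn (0.0241) and Elovl6 (0.0438). It called 2 downregulated, Acaca (0.0046) and Thrsp (0.0129), where it called 3.19% of all probe sets. Both shares include the 19767 flat probe sets, while all 9 genes varied. The share of varying probe sets called was not counted, so the 4 and the 2 cannot be read as more than usual. Fasn and Elovl6 were called upregulated although their mean differences were -0.06 and -0.01. Over the varying probe sets alone it called 0 of the 9 genes upregulated and 0 downregulated, so its calls on these genes were made only with flat probe sets in the ranking. The share of varying probe sets called in that setting was not counted. Whether the 0 of 9 is particular to these genes therefore cannot be told.

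In iso-α-acids mouse 1 the fall of some of these genes was among the deepest on the array. By the difference from iso-α-acids mice 2 to 5, Thrsp was rank 5 of 2439 varying probe sets, Fasn 12, Acly 19, Elovl5 27 and Elovl6 46. Fads1 was rank 81, Fads2 117, Acaca 168 and Scd1 204. The difference was -3.28 on the log2 scale for Thrsp and -0.79 for Scd1, whose other mice lay near the upper end of the scale. Genes of other lipid lists fell as far in iso-α-acids mouse 1, with -3.95 for Elovl3 and -2.58 for Hmgcs1, which are described below. That mouse was also the lowest of all mice for 10 of 11 varying cholesterol synthesis genes. In iso-α-acids mouse 1 the mean of the acute phase and stress genes (Saa1, Saa2, Lcn2, Orm2, Mt1 and Mt2) was 2.02, as given above. By gene, its deviation from the control mean was -0.20, -0.36, 2.85, 1.37, 4.02 and 4.42 in the same order. Saa1 stood at a log2 level of 9.22 in that mouse, against 10.86 and 10.53 in control mice 3 and 5. Control mice 3 and 5 also had high means of these genes, 1.32 and 0.79, with means of the 9 genes of -0.27 and -0.07. The mean of the 2 varying hepatocyte markers was 0.353 in iso-α-acids mouse 1 and 0.0361 to 0.0961 in iso-α-acids mice 2 to 5, against -0.0276 to 0.0495 in the control mice. Alas2, the 1 measured of 4 erythrocyte markers, was lowest in the same mouse too. Its log2 levels were 7.45, 9.25, 9.41, 9.30 and 9.41 in the iso-α-acids diet group, against 9.85, 9.47, 9.63, 9.71 and 9.55 in the control diet group, with no overlap and an adjusted p of 0.639 by limma. The part of the acute phase genes, of hepatocyte content and of blood cells in the values of the fatty acid genes was not tested.

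**Figure D3:**
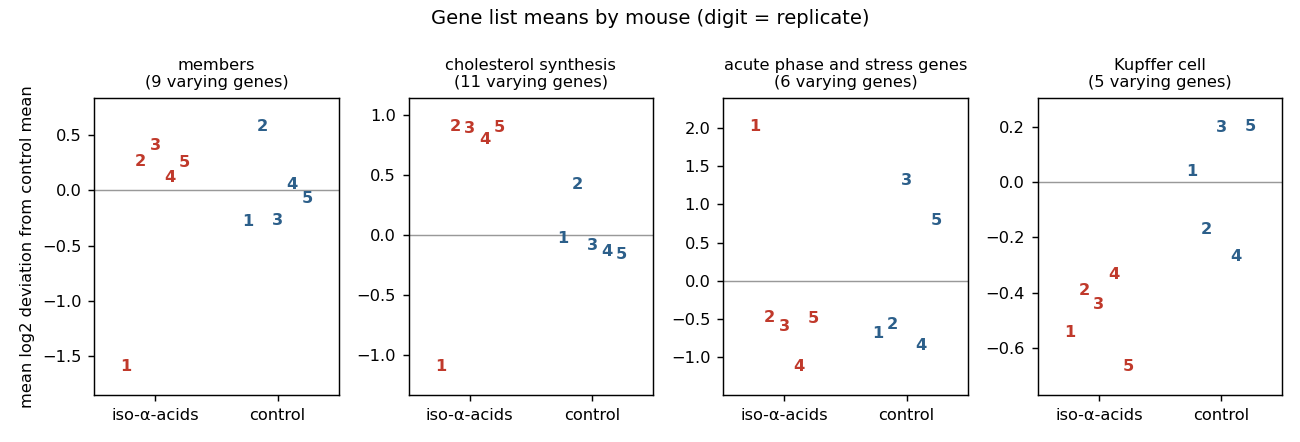
Mean log2 deviation from the control mean over the varying genes of 4 lists, by mouse, with the iso-α-acids diet group left of the control diet group and digits for replicates; each panel has its own vertical axis. Iso-α-acids mouse 1 lies at -1.59 for the fatty acid genes, -1.09 for cholesterol synthesis and 2.02 for the acute phase and stress genes.

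The 5 varying Kupffer cell markers of 6 measured (Clec4f, Vsig4, Cd5l, C1qa and Adgre1, with Marco flat) had a mean deviation of -0.67 to -0.34 in the iso-α-acids mice, against -0.27 to 0.20 in the control mice. None of them passed limma over all probe sets, and 5 were lower at an unadjusted p under 0.05. The share of all probe sets lower at that unadjusted p was not counted, so the 5 are not set against it. Rank products called the same 5 downregulated (FDR of 1.4e-05 to 0.00086), where it called 3.19% of all probe sets, flat ones included. In iso-α-acids mouse 1 the mean deviation of the 5 markers was -0.55, within the range of its group. The part of the resident macrophages in the values of the fatty acid genes was not tested.

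The genes around the pathway were counted from 6 lists of 51 genes. Of these, 45 were measured, 29 varied and 16 were flat. By limma with all mice 2 were called higher, 0 lower and 43 were not called, where 0.590% of all probe sets were called higher and 0.171% lower. Both were genes of glycerolipid assembly. Lpin2, a phosphatidate phosphatase, had log2 levels of 10.00, 9.76, 10.08, 9.66 and 9.90 in the iso-α-acids diet group, against 9.14, 9.31, 9.05, 9.36 and 8.89 in the control diet group. The groups did not overlap, iso-α-acids mouse 1 lay among its group, and the difference was 0.73 ± 0.11 (SE; limma adjusted p = 0.0306). Agpat3, an acyltransferase that makes phosphatidate, had log2 levels of 11.30, 11.42, 11.33, 11.39 and 11.42 in the iso-α-acids diet group, against 11.17, 11.13, 11.12, 11.19 and 11.11 in the control diet group. Again no mice overlapped, and the difference was 0.23 ± 0.03 (adjusted p = 0.0118). Leaving out each mouse in turn, Agpat3 kept its call, with an adjusted p of 0.0045 to 0.0466. Lpin2 lost it without any 1 of control mice 1, 2, 3 and 5 or iso-α-acids mice 2, 3 and 5 (adjusted p of 0.0588 to 0.0851, with a difference of 0.67 to 0.77), and also without the 3 arrays with the highest acute phase genes (0.58, adjusted p = 0.123). Rank products over varying probe sets alone called Lpin2 (FDR = 0.0343) and not Agpat3 (0.71).

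In the precursor supply list 7 of 9 genes were measured, 6 varied and none was called. Me1, the malic enzyme that supplies NADPH, is named after its values were seen. Its log2 levels were 9.37, 12.00, 11.96, 11.78 and 11.86 in the iso-α-acids diet group, against 10.02, 11.66, 8.86, 10.83 and 10.90 in the control diet group. Iso-α-acids mice 2 to 5 lay above every control mouse and iso-α-acids mouse 1 lay above only 1, with a difference of 0.94 ± 0.68 (SE; limma adjusted p = 0.743) and of 1.45 (adjusted p = 0.310) without iso-α-acids mouse 1. Of the 6 varying genes 5 had a difference above 0 and 1, Pklr, below 0. Pklr, also named after its values were seen, differed by -0.72 ± 0.52 (SE; limma adjusted p = 0.742) with all mice. Without iso-α-acids mouse 1 it differed by -0.36 (adjusted p = 0.838).

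In the elongation cycle list 9 of 9 genes were measured, 7 varied and none was called with all mice. Without iso-α-acids mouse 1, limma called 4 higher and 1 lower, where it called 1.57% of all probe sets higher and 0.662% lower. Of the 4, Hacd1 (0.35, adjusted p = 0.0070), Hacd3 (0.32, adjusted p = 0.0181) and Hsd17b12 (0.26, adjusted p = 0.0181) varied, and Hacd2 was flat. Hacd1 and Hacd3 are dehydratases and Hsd17b12 a ketoacyl reductase, which act after the elongase in each round. The lower gene was Elovl3, an elongase of very long saturated and monounsaturated chains. It had log2 levels of 8.02, 11.94, 12.07, 11.91 and 11.98 in the iso-α-acids diet group, against 12.44, 12.23, 12.20, 12.28 and 12.29 in the control diet group. All 5 iso-α-acids mice lay below all 5 control mice, with a difference of -1.10 ± 0.77 (SE; limma adjusted p = 0.728) that was -0.31 (adjusted p = 0.0319) without iso-α-acids mouse 1. These 5 genes are named after their values were seen.

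Among the regulators 11 of 13 genes were measured and none was called with or without iso-α-acids mouse 1. They included 2 named after their values were seen, Mlxipl, the carbohydrate response factor ChREBP, at -0.17 ± 0.11 (SE; limma adjusted p = 0.697), and Srebf2, which drives sterol synthesis, at 0.13 ± 0.09 (adjusted p = 0.723). Of the other desaturases 4 of 5 were measured, 3 of them flat, and of the genes of mitochondrial fatty acid synthesis 5 of 6 were measured, all flat. Over all 6 lists, without iso-α-acids mouse 1, limma called 6 genes higher and 1 lower. Of the 6 called higher, 5 varied and 1, Hacd2, was flat. The same fit called 1.57% of all probe sets higher and 0.662% lower.

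**Figure D4:**
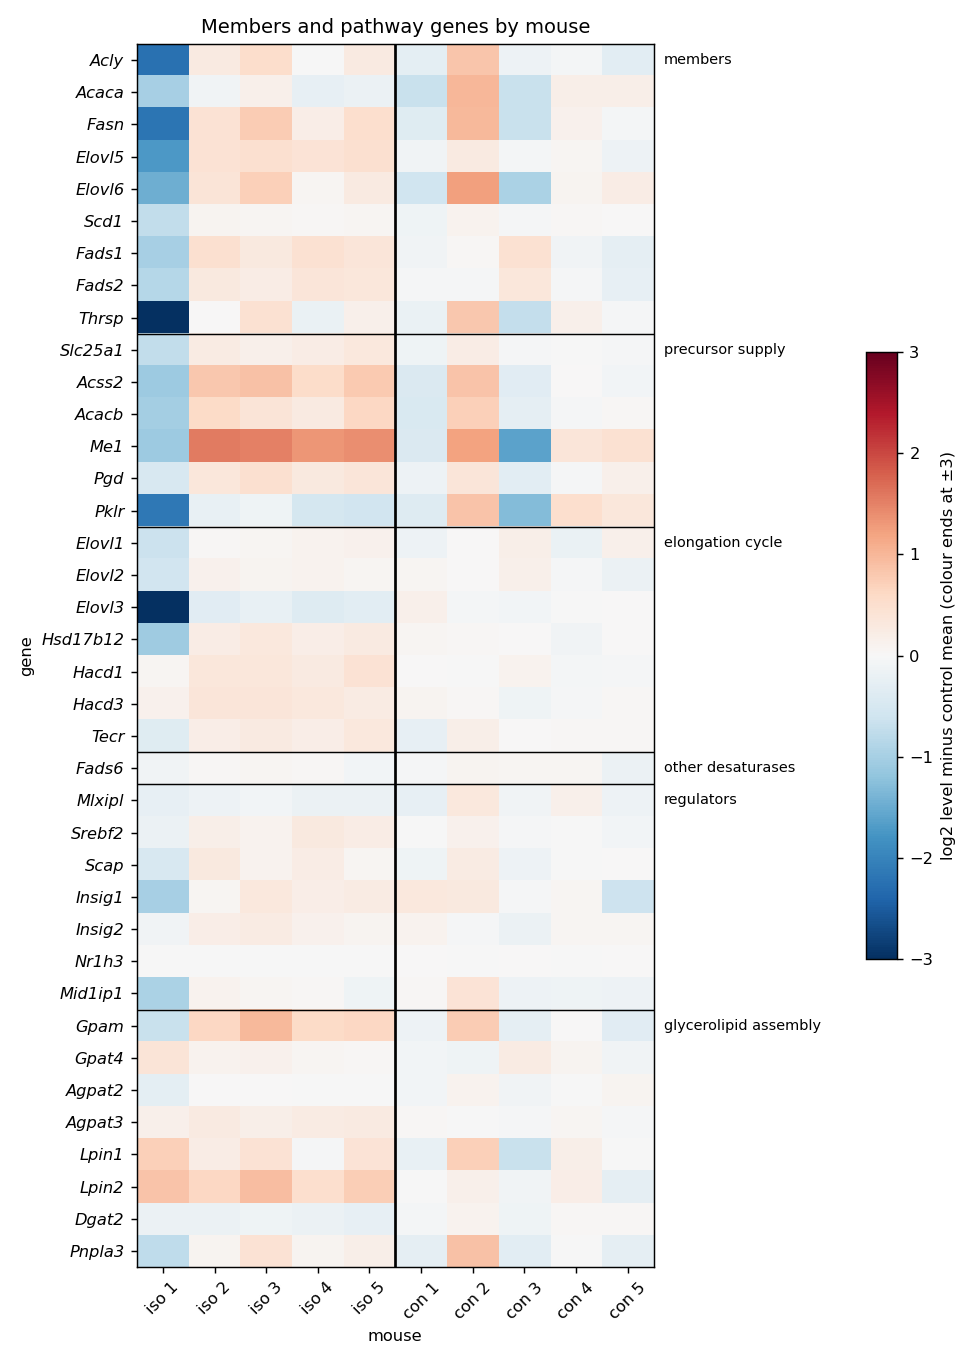
Log2 level minus the control mean for the 9 measured genes (top block) and 29 varying pathway genes (rows, by list) in each mouse (columns, iso-α-acids diet group left of the line). Iso-α-acids mouse 1 (iso 1) is lowest of all mice for 9 of the 9 genes and for 19 of the 29 pathway genes.

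Cholesterol synthesis, the other lipid pathway of the hepatocyte, was set beside these genes. Of 16 listed genes 12 were measured and 11 varied, and the median difference of the varying ones was 0.39 with all mice and 0.86 without iso-α-acids mouse 1, where the fatty acid genes had -0.06 and 0.31. Limma called 0 of them with all mice and 7 higher without iso-α-acids mouse 1, against 0 and 1 of the fatty acid genes. Over all probe sets it called 0.590% higher with all mice and 1.57% without iso-α-acids mouse 1. At an unadjusted p under 0.05 limma called 1 of the cholesterol genes with all mice. The share of all probe sets at that p was not counted. Rank products with all mice called 11 of the 12 measured cholesterol genes upregulated and 0 downregulated, against 4 and 2 of the 9 fatty acid genes. Over all probe sets, flat ones included, rank products called 3.72% upregulated and 3.19% downregulated. Hmgcs1, the cytosolic HMG-CoA synthase, differed by 0.96 ± 0.54 (SE; limma adjusted p = 0.646) with all mice and by 1.47 (adjusted p = 0.0234) without iso-α-acids mouse 1. Sqle, the squalene epoxidase, differed by 1.02 ± 0.47 (adjusted p = 0.542) and by 1.47 (adjusted p = 0.0053). The mean deviation of the list was -1.09 in iso-α-acids mouse 1 and 0.80 to 0.90 in iso-α-acids mice 2 to 5, against -0.17 to 0.42 in the control mice. Iso-α-acids mice 2 to 5 thus lay above all control mice for this list mean, which they did not for the mean of the fatty acid genes. The difference between the lists was not tested.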

How the data were processed

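Liver RNA was hybridized to Clariom S Mouse Arrays, 1 mouse per array. The deposited log2 values were made by the authors from CEL files with quantile normalization and qFARMS, which fits a factor model to the probes of each probe set and leaves those without shared variation nearly constant. The log base was not stated and was read from the range of values, and the software versions are not given in the sources used here. Precision is limited by the number of arrays.

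The values were used without further normalization. Symbols came from the platform annotation, in which 19572 of 22206 probe sets had 1 symbol, 2634 had none and 0 had several. Where a gene had several probe sets, the one with the highest mean was used. Groups were compared with limma 3.58.1 in R 4.3.3 (lmFit and eBayes without trend, two-sided, Benjamini-Hochberg adjusted p under 0.05 over all probe sets). Rank products took the median over 120 pairings, with gamma p-values and an FDR under 0.05 per direction. Intervals are limma's and are not adjusted. Both tests were tested on simulated data.

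The genes named were all 10 genes of the set, the pathway genes that passed limma, Hmgcs1 and Sqle of cholesterol synthesis, and the 5 genes most and the 5 least alike to the mean profile. Genes outside this rule are said to be. The genes, lists and tests were chosen with earlier results of these data known. Other markers were of sinusoidal endothelial cells (4 of 4 measured), stellate cells (4 of 4), cholangiocytes (4 of 4), exocrine pancreas (4 of 5) and erythrocytes (1 of 4). Limma called none of them. Of the measured ones, 2, 3, 3, 4 and 0 were flat in the same order, so a missing call says little there. Rank products called 2 endothelial markers, Lyve1 and Kdr, and the erythrocyte marker Alas2 downregulated, where it called 3.19% of all probe sets.

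Results were recomputed with each mouse left out, with arrays centred or quantile normalized again, with filters on dim (25%) and on flat probe sets, other variance models, array weights, rank products, the methods' t-test, 1 probe set per gene, other thresholds and the replicate number as a block. Promoter windows came from RefSeq (GRCm38.p6). Other measurements of the study were not used here.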

Additional observations from a re-analysis of the deposited data

Results flagged for a closer look

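Within each diet group of 5 mice, the gap between the most distant mouse and its nearest neighbour was divided by the range of the group and set against Dixon's 95% critical value, for the fatty acid genes and the called pathway genes. Of 22 groups, 8 passed it, and chance passes about 5% of groups. In 7 of the 8, all in the iso-α-acids diet group, mouse 1 was the distant, low one. The ratio was 0.963 for Elovl5, 0.942 for Scd1, 0.877 for Fads1, 0.875 for Fads2, 0.816 for Thrsp, 0.810 for Fasn and 0.802 for Acly. Acaca and Elovl6 did not pass in that group. The remaining 1 was Acly in the control diet group, with 0.785, where mouse 2 was the distant, high mouse. The genes were measured in the same mice, so these ratios are not independent of each other.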

How the results depend on the processing

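With 5 mice per group, limma's prior degrees of freedom were 0.348. The intervals with all mice were wide, at -1.42 to 1.30 for Fasn and -0.97 to 1.00 for Elovl5. The differences of these genes without iso-α-acids mouse 1, 0.47 and 0.45, lay inside them. The SE of Elovl5 was 0.43 with that mouse and 0.08 without it, and that of Agpat3 was 0.03 with all mice. What set the widths was not tested. Over the settings tried, the fatty acid genes called higher went to 1 without iso-α-acids mouse 1 (leaving out each mouse gave 0 to 1), 4 by rank products (and 2 lower), 2 with varying probe sets only and that mouse left out, and 2 without the 3 arrays with the highest acute phase genes (that mouse and control mice 3 and 5). The last 2 settings were chosen after seeing the data, as was rank products over varying probe sets, and the genes were Elovl5 in the first fit, Elovl5 (adjusted p = 0.0035) and Fads1 (adjusted p = 0.0455) over varying probe sets, and Fads1 (0.46, adjusted p = 0.0447) and Fads2 (0.34, adjusted p = 0.0283) in the last. Pathway genes called higher, 2 with all mice, were 1 to 6 when each mouse was left out, 4 with varying probe sets only, 4 with array weights, 16 by rank products, 10 with varying probe sets only and iso-α-acids mouse 1 left out, 0 at an adjusted p under 0.01 and 0 with the replicate block. Pathway genes called lower, 0 with all mice, were 0 to 1 when each mouse was left out, 1 with varying probe sets only, 5 by rank products, 2 by rank products over varying probe sets only, and 2 with varying probe sets only and iso-α-acids mouse 1 left out. The 6 pathway genes called higher without iso-α-acids mouse 1 included 1 flat gene, Hacd2. The cause of these changes in the counts was not tested. Of all probe sets, 0.590% were called higher and 0.171% lower with all mice, and 1.57% and 0.662% without iso-α-acids mouse 1. Rank products called 3.72% and 3.19%. The share was not counted for the other settings or among varying probe sets alone, so the counts cannot be read as more or fewer than usual. Leaving out each mouse gave log2 differences of -0.43 to 0.26 for Acly, -0.26 to 0.47 for Fasn, -0.10 to 0.45 for Elovl5, -0.25 to 0.35 for Elovl6, -0.14 to 0.0585 for Scd1, -0.0014 to 0.31 for Fads2 and -0.80 to 0.11 for Thrsp, so their direction turned with 1 mouse. Acaca stayed below 0 and Fads1 above 0. Directions also turned with array weights for Fasn (0.16) and Elovl6 (0.12), with varying probe sets only and iso-α-acids mouse 1 left out for Acly (0.26), Fasn (0.47), Elovl6 (0.35), Scd1 (0.0585) and Thrsp (0.11), and without the 3 arrays for Acly (0.11), Fasn (0.24), Elovl6 (0.11) and Scd1 (0.0480). Replicate numbers did not pair the mice, with same-numbered deviations correlating at -0.21 to 0.23 over varying probe sets. With the replicate block limma called 0 fatty acid genes higher and 0 lower, and both Lpin2 (adjusted p = 0.263) and Agpat3 (adjusted p = 0.167) lost their calls.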

Other observations

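The genes whose pattern over the 10 arrays was most like the mean profile of the 9 measured fatty acid genes were ranked among 2135 other varying genes by Pearson's r, given as a description, since the points share 1 distant mouse. The highest were Adipor2 (r = 0.989), an adiponectin receptor, Cyb5r3 (0.976), a cytochrome b5 reductase that passes electrons to desaturases, Fdps (0.975), the farnesyl diphosphate synthase of cholesterol synthesis, Slc23a1 (0.975), a vitamin C transporter, and Aqp8 (0.965), a water channel. Over the 9 arrays without iso-α-acids mouse 1 their r was 0.951, 0.880, 0.890, 0.879 and 0.934 in the same order. Aqp8 stood at a log2 level of 8.09 in that mouse and 11.12 on average in iso-α-acids mice 2 to 5, against 10.28 on average in the control mice. Fdps stood at 6.86 in that mouse and 9.46 on average in iso-α-acids mice 2 to 5, against 8.85 on average in the control mice.

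The lowest r belonged to Slc8b1 (-0.983), a mitochondrial sodium and calcium exchanger, Gne (-0.963), an enzyme of sialic acid synthesis, Kng2 (-0.957), a kininogen, Il6ra (-0.949), the interleukin-6 receptor alpha chain, and Nfkbia (-0.944), the inhibitor of NF-κB. Without iso-α-acids mouse 1 it was -0.931, -0.835, -0.776, -0.839 and -0.756 in the same order. Il6ra stood at 9.30 in that mouse and 8.03 on average in iso-α-acids mice 2 to 5, against 8.35 on average in the control mice. Nfkbia stood at 8.72 in that mouse and 7.92 on average in iso-α-acids mice 2 to 5, against 7.97 on average in the control mice.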
